A study of Mus musculus with 6 samples.

Results

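The enzymes that finish the breakdown of leucine, isoleucine and valine in mitochondria were compared between gastrocnemius muscle lacking interferon regulatory factor 4 (IRF4) and gastrocnemius overexpressing it. The 10 genes, Ivd, Mccc1, Mccc2, Auh, Acadsb, Acad8, Hibch, Hibadh, Aldh6a1 and Pcca, were listed by symbol for their place after the branched-chain ketoacid dehydrogenase, and all 10 were found among the 24054 genes of the count table. RNA-seq of 6 libraries from male C57BL/6 mice was used. There were 3 libraries from MI4KO mice, in which floxed Irf4 was deleted with a Myl1-cre that is selective for skeletal muscle, and 3 from MI4OE mice, in which the same Myl1-cre switched on an Irf4 transgene at the Rosa26 locus. The Cre is not meant to act in other cells of the muscle, and whether these kept Irf4 was not tested. Both groups carried the Cre, every library was labelled as high fat diet although the study described its mice on chow, and no age was given for these animals. Control muscle was not analysed here. A difference below can therefore lie with the deletion, with the transgene or with both.

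Branched-chain amino acids (BCAAs) are broken down largely outside the liver at the first step, and skeletal muscle is a main site of it. A transaminase and the ketoacid dehydrogenase complex turn the amino acids into acyl-CoAs, and from there each amino acid has its own mitochondrial route. Leucine ends as ketone-body carbon and acetyl-CoA, isoleucine as acetyl-CoA and propionyl-CoA, and valine as propionyl-CoA, which propionyl-CoA carboxylase passes on towards the citric acid cycle. The valine route releases free 3-hydroxyisobutyrate, a metabolite that can leave the muscle.

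Libraries held 18828575 to 29239533 expected counts. Irf4 was at 0 to 0.246 CPM (counts scaled by library size) in MI4KO and at 141 to 369 CPM in MI4OE, and Gt(ROSA)26Sor, at the transgene locus, was at 0.504 to 0.778 and 69.9 to 87.3 CPM, so both genes matched the labels. The 7 muscle markers together took 151370 to 287580 CPM. MI4OE replicate 1 stood apart: 10 slow-fibre genes summed to 7387 CPM there, against 55.3 and 712 CPM in MI4OE replicates 2 and 3 and 41.5 to 144 CPM in MI4KO. Fast-fibre genes summed to 148260 CPM in that library and to 219170 to 290910 CPM in the others. In whole muscle, a different number of fibres of a type and a different amount of RNA per fibre cannot be told apart. What set this library apart was not tested.

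The 10 enzymes were all well measured. Expected counts ran from 449 to 2967 per gene and library, for which counting error alone is 1.84% to 4.72%. All 10 passed the filter on low counts. Each gene had 1 transcript in the authors' set. The counts of Mccc1 and Aldh6a1 were not whole, to within 1e-06, in 6 of 6 libraries, as happens where RSEM divides reads between transcripts, and the other 8 genes had whole counts.

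On the TPM scale, which adjusts for transcript length and allows genes to be ranked, Hibadh had the highest mean and Mccc1 the lowest. Acad8 was above Mccc1 in 5 of 6 libraries. Hibadh, the dehydrogenase that oxidises 3-hydroxyisobutyrate, was at 92.6 ± 12.0 TPM (SD, n = 6). Auh and Ivd followed at 60.0 ± 7.81 and 58.5 ± 12.9 TPM (SD, n = 6). Aldh6a1 was at 35.6 ± 14.6, Acadsb at 32.01 ± 8.33, Pcca at 30.4 ± 4.69 and Hibch at 26.2 ± 3.21 TPM (SD, n = 6). The lowest levels were those of Mccc2 at 19.2 ± 3.65, Acad8 at 16.9 ± 1.58 and Mccc1 at 15.7 ± 2.27 TPM (SD, n = 6). No 2 neighbours in this order had ranges that were apart. Hibadh was above Auh, Ivd above Aldh6a1, and Hibch above Mccc2 in 6 of 6 libraries. Auh was above Ivd in 2 of 6 libraries, although its mean was higher, so the pair had no stable order. All 10 sat in the upper part of expressed genes, from the 69.9th percentile of mean TPM for Mccc1 to the 92.1st for Hibadh.

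**Figure D1:**
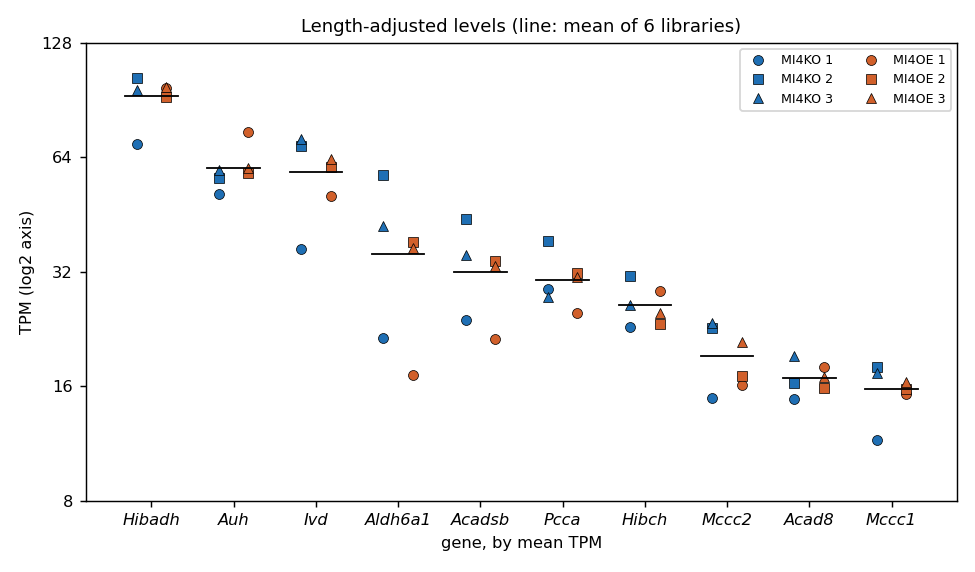
Length-adjusted level of each distal BCAA enzyme, in TPM on a log2 axis, with 1 point per library (blue MI4KO, orange MI4OE; circle, square and triangle for replicates 1, 2 and 3) and a line at the mean of 6 libraries. Mean levels run from 15.7 TPM for Mccc1 to 92.6 TPM for Hibadh, and blue and orange points mix in every gene.

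The question put to these genes was whether their mRNA differed with IRF4. None of the 10 passed a test. Of the 10 enzymes, 0 had an adjusted p under 0.05 with edgeR's quasi-likelihood test, 0 had an unadjusted p under 0.05, and 0 passed the looser rule that the study used, which asks for a 1.5-fold difference with an unadjusted p under 0.05. DESeq2 and edgeR's exact test also called 0 of 10 by each of these rules. Over all 12660 genes tested, 0.0237% passed the adjusted threshold, 7.58% the unadjusted one and 6.64% the looser rule. The groups overlapped in all 10 enzymes. They were apart in 12.9% of all genes tested, a share at which 0 of 10 is near the background. Mean log2 fold changes (MI4OE minus MI4KO) had a median of -0.08 over the 10 enzymes and -4.35e-05 over all genes tested. With no threshold applied, 8 of the 10 were lower in MI4OE, against 50% of all genes, and 5 of the 10 were when libraries were scaled by total counts, which moved the median of all genes to 0.0896. Relative to the median of all genes, the median of the 10 was -0.08 with the scaling used here and -0.09 with total counts.

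The data also set a limit on the size of the differences. The 95% interval of the log2 fold change lay within 1.5-fold in either direction for 6 of the 10 enzymes, namely Ivd, Mccc1, Acad8, Hibch, Hibadh and Pcca, and this was so for 25.9% of all genes tested. The latter share covers genes at all levels, and the share among genes at levels like those of the enzymes was not taken. For Mccc2, Auh, Acadsb and Aldh6a1 a difference of 1.5-fold in one direction was not excluded by the interval. That direction was lower in MI4OE for Mccc2, Acadsb and Aldh6a1 and higher in MI4OE for Auh.

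**Figure D2:**
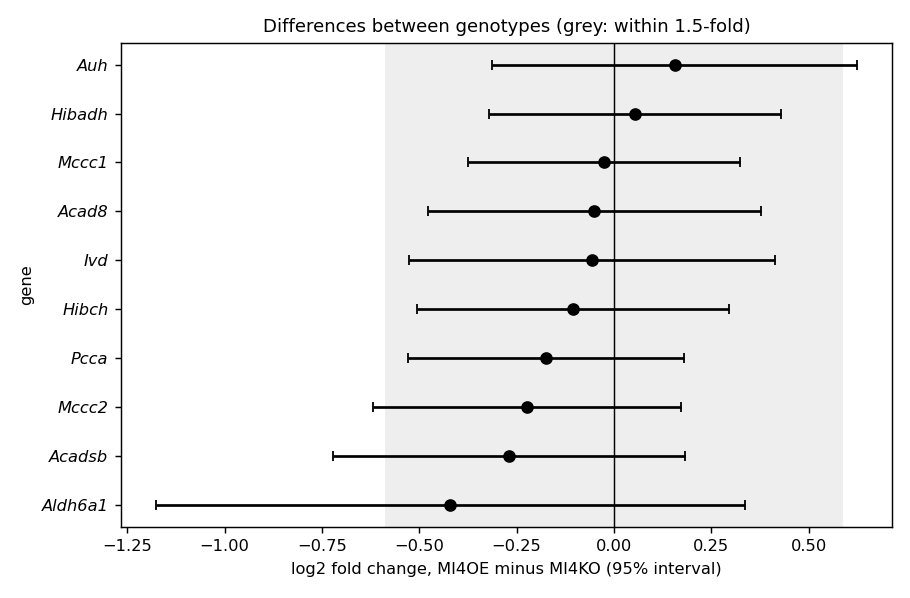
Log2 fold change (MI4OE minus MI4KO) of each enzyme with its 95% interval from edgeR's quasi-likelihood fit, 3 libraries a group. The grey band marks 1.5-fold in either direction; every interval crosses 0, and 6 of 10 stay inside the band.

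In the leucine route, Ivd, the isovaleryl-CoA dehydrogenase that carries out the first oxidation, measured 54.8, 73.9 and 89.4 CPM across MI4KO replicates 1 to 3, against 67.4, 68.3 and 74.1 CPM across MI4OE replicates 1 to 3, and values below keep that order. The MI4OE libraries all lay inside the range of MI4KO, and the spread was wider in MI4KO (SD 17.3 CPM) than in MI4OE (SD 3.65 CPM). Its log2 fold change, -0.06, had a standard error of 0.20, with -0.53 to 0.41 as the 95% interval. Mccc1, the biotin-carrying subunit of methylcrotonyl-CoA carboxylase, had MI4KO values of 25.4, 28.5 and 31.8 CPM, and its MI4OE values were 29.9, 26.2 and 28.2 CPM, again inside the range of MI4KO. Its log2 fold change, -0.03, had a standard error of 0.15, the smallest standard error among the 10. Mccc2, the partner subunit of that carboxylase, had MI4KO values of 22.9, 25.3 and 30.2 CPM, and its MI4OE values were 22.1, 19.8 and 25.2 CPM. Here 2 of 3 MI4OE libraries were below all MI4KO libraries, and the third was not. The log2 fold change, -0.22, had a standard error of 0.17 and an adjusted edgeR p of 0.836, and it was -0.12 without MI4KO replicate 3 and -0.14 without MI4OE replicate 2.

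Since Mccc1 and Mccc2 form a single enzyme, their ratio was taken within each library, where scaling between libraries plays no part. TPM of Mccc2 over Mccc1 was 1.29, 1.27 and 1.35 in MI4KO and 1.06, 1.08 and 1.28 in MI4OE. The mean was 1.30 ± 0.0459 (SD, n = 3) in MI4KO and 1.14 ± 0.122 (SD, n = 3) in MI4OE. MI4OE replicate 3 lay within the MI4KO range and the other two lay below it. The difference on the log2 scale was -0.20, with a two-sided exact permutation p of 0.2, where 0.1 is the smallest p that 3 against 3 can give. Auh, the methylglutaconyl-CoA hydratase that also binds AU-rich RNA, had MI4KO values of 48.1, 38.3 and 46.6 CPM, and its MI4OE values were 62.4, 41.6 and 44.2 CPM. It was the enzyme with the largest positive log2 fold change, 0.16 with a standard error of 0.20, and MI4OE replicate 1 alone exceeded the MI4KO range. Without that library the value was -0.05.

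Acadsb, the short/branched-chain acyl-CoA dehydrogenase of the isoleucine route, had MI4KO values of 59.0, 78.9 and 73.6 CPM, and its MI4OE values were 46.9, 64.1 and 64.4 CPM. The lowest library was MI4OE replicate 1, and MI4KO replicate 1 lay below the other MI4OE libraries, so the groups overlapped. Its log2 fold change, -0.27, had a standard error of 0.19, a 95% interval of -0.72 to 0.18 and an adjusted edgeR p of 0.819. Leaving out 1 library at a time gave -0.39 to -0.13.

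In the valine route, Acad8, the isobutyryl-CoA dehydrogenase, had MI4KO values of 31.3, 24.8 and 33.9 CPM, and its MI4OE values were 33.8, 25.3 and 27.8 CPM, a log2 fold change of -0.05 with a standard error of 0.18. Hibch, the hydrolase that frees 3-hydroxyisobutyrate from CoA, had MI4KO values of 27.8, 27.3 and 26.6 CPM, and its MI4OE values were 30.9, 21.5 and 23.7 CPM. It was even in MI4KO (SD 0.586 CPM) and uneven in MI4OE (SD 4.93 CPM), with MI4OE on both sides of MI4KO. Hibadh, the next enzyme, had MI4KO values of 85.6, 92.3 and 99.7 CPM, and its MI4OE values were 107, 86.3 and 94.6 CPM, with a log2 fold change of 0.05 and a standard error of 0.16. Neither Hibch (-0.10, standard error 0.17) nor Hibadh differed beyond the replicate spread.

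Aldh6a1, the methylmalonate-semialdehyde dehydrogenase that ends the valine route, was the most variable of the 10. It had MI4KO values of 53.0, 102 and 87.3 CPM, and its MI4OE values were 37.8, 72.1 and 71.4 CPM. Replicate 1 was the lowest library in each group, and the highest library was 2.71 times the lowest. The log2 fold change of -0.42 was the largest in size among the enzymes, but its standard error of 0.32 was too, the 95% interval was -1.18 to 0.33 and the adjusted edgeR p was 0.840. It was -0.66 without MI4KO replicate 1 and -0.17 without MI4OE replicate 1.

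Pcca, the biotin-carrying subunit of propionyl-CoA carboxylase, had MI4KO values of 55.0, 53.0 and 43.7 CPM, and its MI4OE values were 42.3, 46.0 and 46.2 CPM. Its log2 fold change, -0.17, had a standard error of 0.15, and it was -0.28 without MI4KO replicate 3. MI4KO replicate 3 lay among the MI4OE libraries and the others above them. TPM of its partner subunit Pccb over Pcca was 2.07, 1.80 and 2.70 in MI4KO and 2.72, 2.09 and 2.31 in MI4OE. The log2 difference was 0.13 (two-sided exact permutation p = 0.5), and it was -0.0041 without MI4KO replicate 2.

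**Figure D3:**
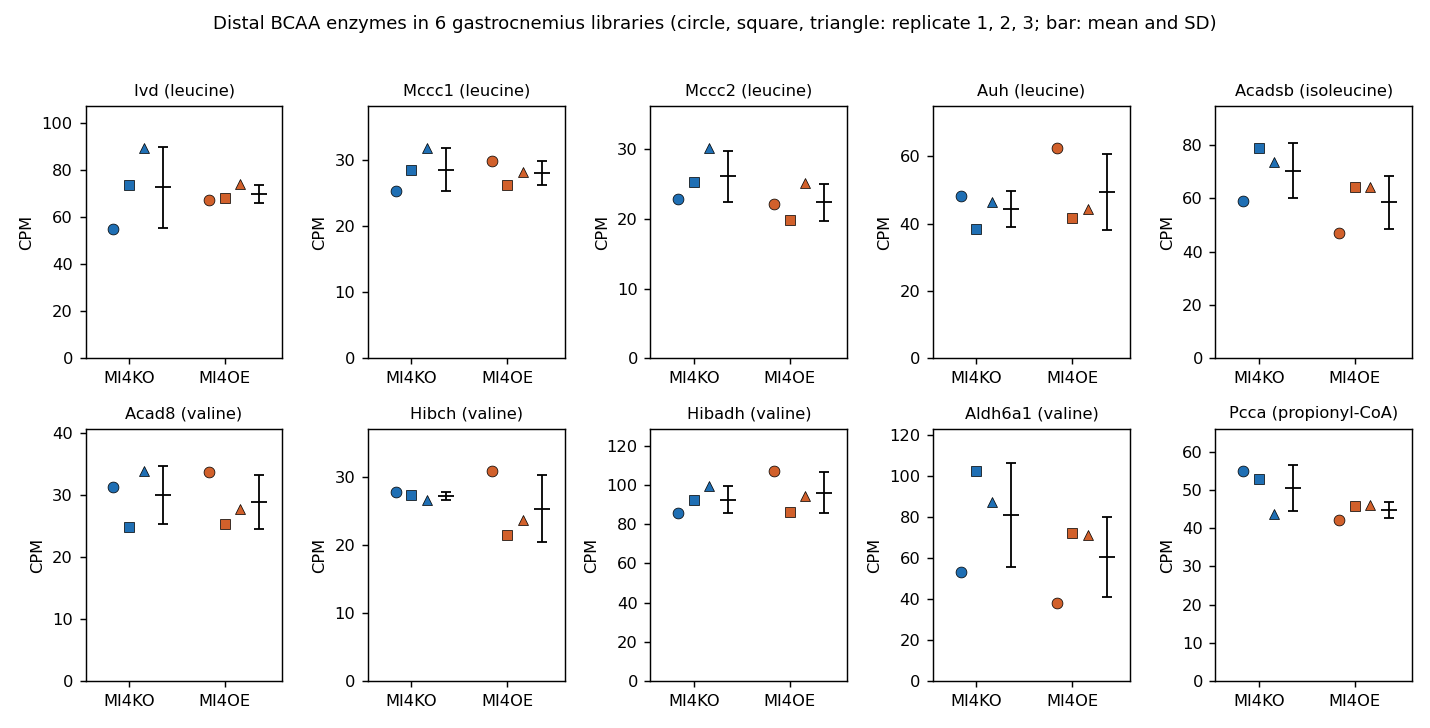
CPM of the 10 enzymes in 6 libraries, 1 panel a gene with the axis from 0 (blue MI4KO, orange MI4OE; circle, square and triangle for replicates 1, 2 and 3), and the mean with SD beside each group. The groups overlap in every panel, and Aldh6a1 and Acadsb are lowest in MI4OE replicate 1 while Auh is highest there.

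Summed by route, TPM of the 2 groups overlapped as well. The leucine enzymes summed to 151 ± 31.5 TPM in MI4KO and 156 ± 4.79 TPM in MI4OE (SD, n = 3 each). The valine enzymes summed to 173 ± 40.9 and 169 ± 7.76 TPM (SD, n = 3 each). The wider spread in MI4KO came with MI4KO replicate 1, where all 10 enzymes together reached 295 TPM, against 418 and 457 TPM in the other MI4KO libraries. On the CPM scale with trimmed-mean scaling the same sum was 463 CPM there and 471 to 563 CPM elsewhere.

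How the enzymes varied together was described over the 6 libraries. Values of different genes in a library come from the same RNA and the same depth, and the libraries differed in depth and in their marker genes. Spread over libraries was modest, with a coefficient of variation of 8.33% for Mccc1 to 32.8% for Aldh6a1 and a median of 14.3%. The median for tested genes with a mean of 20 to 100 CPM was 16.4%. Of 45 pairs, 28 had a positive Pearson's r of log2 CPM and 17 a negative one, with a median r of 0.28. An r above 0.8 was seen in 4 pairs. The same counts over pairs of other genes were not taken, so these are a description only. Acadsb and Aldh6a1 had the highest, at 0.99, and it was 0.998 for deviations from the group means. Auh ran the other way, with r of -0.89 to Acadsb and -0.90 to Aldh6a1. Mccc1 followed Hibadh (0.85) and Ivd (0.84), and Auh followed Acad8 (0.82).

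**Figure D4:**
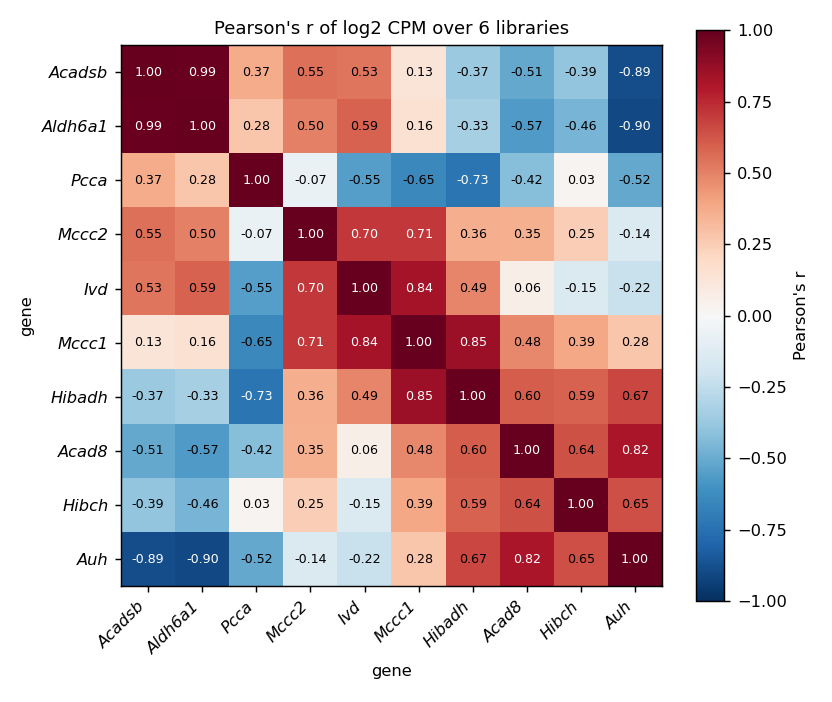
Pearson's r of log2 CPM between each pair of enzymes over 6 libraries, red for positive and blue for negative. Acadsb and Aldh6a1 form the closest pair at 0.99, and Auh is opposite to both at -0.89 and -0.90.

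Transcript length was read beside this pattern. Acadsb and Aldh6a1 have the longest transcripts of the 10, at 3348 and 3343 bases, and Auh the shortest at 1345 bases. Relative to the mean of the other 5 libraries, MI4OE replicate 1 held 0.690 times the Acadsb, 0.489 times the Aldh6a1 and 1.43 times the Auh. Over the 10 enzymes the Spearman correlation of length with that ratio was -0.76, and over 12660 tested genes it was -0.29. Acadsb, Aldh6a1, Auh and that library were singled out from these same values, so the -0.76 is no separate evidence. The median ratio over all tested genes was 1.19 in the shortest and 0.865 in the longest of 3 length classes. In MI4KO replicate 1 the medians of these classes were 1.06 and 0.872, and the correlation was -0.25 over all tested genes and -0.28 over the 10 enzymes. That library held 0.714 times the Aldh6a1, 0.735 times the Ivd, 0.900 times the Acadsb, 1.03 times the Auh and 1.19 times the Pcca of the other 5 libraries. The part of transcript length in the levels of Acadsb, Aldh6a1 and Auh was not tested.

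The promoters of the enzymes at both ends of that pattern are shown because these genes stood at the extremes of co-variation, and that of Ivd for its 4 CCAAT boxes. RefSeq windows of GRCm38.p6 were found for 10 of 10 enzymes, 12 windows in all, and the 250 bases before each start were searched on both strands. The build behind the counts was not stated, so these coordinates belong to RefSeq alone. Each sequence runs 5′ to 3′ on the strand of the gene. Capitals mark CCAAT boxes (CCAAT, or ATTGG on the other strand) and GC boxes (GGGCGG, or CCGCCC), and matches of a motif can overlap.
Acadsb, chr7:131410351-131410600, strand plus: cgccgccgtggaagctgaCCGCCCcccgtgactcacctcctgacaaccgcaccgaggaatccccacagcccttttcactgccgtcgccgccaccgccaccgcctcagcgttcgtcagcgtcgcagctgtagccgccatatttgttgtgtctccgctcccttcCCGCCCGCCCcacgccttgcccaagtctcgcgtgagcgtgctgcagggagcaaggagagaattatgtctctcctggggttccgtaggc
Aldh6a1, chr12:84451025-84451274, strand minus: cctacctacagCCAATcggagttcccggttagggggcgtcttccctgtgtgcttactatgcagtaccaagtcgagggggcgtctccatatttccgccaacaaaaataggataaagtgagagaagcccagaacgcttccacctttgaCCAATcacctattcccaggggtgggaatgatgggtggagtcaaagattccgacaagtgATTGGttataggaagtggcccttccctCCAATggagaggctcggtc
Auh, chr13:52929678-52929927, strand minus: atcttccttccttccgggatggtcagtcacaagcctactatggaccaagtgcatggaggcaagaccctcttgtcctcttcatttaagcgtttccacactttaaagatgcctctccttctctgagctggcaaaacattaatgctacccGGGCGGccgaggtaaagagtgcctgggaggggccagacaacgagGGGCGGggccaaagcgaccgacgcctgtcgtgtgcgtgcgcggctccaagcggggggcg
Ivd, chr2:118861744-118861993, strand plus: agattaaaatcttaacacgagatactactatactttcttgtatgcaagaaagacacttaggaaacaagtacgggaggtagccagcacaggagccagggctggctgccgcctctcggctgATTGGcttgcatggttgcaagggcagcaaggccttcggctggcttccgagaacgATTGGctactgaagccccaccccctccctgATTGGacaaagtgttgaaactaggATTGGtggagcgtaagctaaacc

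CCAAT was present in 9 of the 12 windows, covering 7 of the 10 enzymes, and in 33.8% of all 32851 RefSeq windows. GGGCGG was in 7 of the 12 windows, also covering 7 enzymes, and in 32.7% of all windows. Ivd and the upstream window of Aldh6a1 each held CCAAT boxes and no GC box. Acadsb and Auh held GC boxes and no CCAAT box. The core of the interferon-stimulated response element, which IRF proteins can bind, matched 0 of 12 windows, against 2.98% of all windows. The ETS-IRF composite element also matched 0 of 12, against 2.3%, and the oestrogen-related receptor half-site AAGGTCA 0 of 12, against 4.08%. A match or its lack describes these letters in this window only.

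The steps around the 10 enzymes were read from lists of pathway genes. Of the 9 proximal genes (Bcat1, Bcat2, Bckdha, Bckdhb, Dbt, Dld, Bckdk, Ppm1k and Klf15), 8 were tested and 0 passed either rule, with a median log2 fold change of -0.05. Bcat1 had 18 counts over all libraries. The 3 with the smallest p were Bckdha, an E1 subunit of the ketoacid dehydrogenase, at 0.31 with a standard error of 0.27, Klf15, a transcription factor known to drive amino acid breakdown, at -0.23 with 0.21, and Dbt, the E2 core, at -0.21 with 0.19. Of 12 further distal genes, which include the enoyl-CoA hydratase Echs1, the thiolase Acat1 and the mutase Mut, 0 passed either rule, with a median of 0.21. Mmaa, needed for the vitamin B12 cofactor of the mutase, had MI4KO values of 11.2, 9.07 and 10.98 CPM, and its MI4OE values were 23.0, 11.7 and 12.8 CPM. Its groups did not overlap, which held for 1 of the 12 further distal genes and for 12.9% of all genes tested. Its log2 fold change of 0.60 had a standard error of 0.27 and an adjusted edgeR p of 0.685. Hadha, a subunit of the trifunctional protein of fat oxidation, and Abat, a transaminase, had log2 fold changes of 0.65 and 0.74 with standard errors of 0.36 and 0.48.

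Ivd, Acadsb and Acad8 belong to the acyl-CoA dehydrogenase family, which hands electrons to the flavoprotein ETF. Their relatives in fat oxidation were high in MI4OE replicate 1. Acadl, the long-chain enzyme, was at 599 CPM there and at 139 to 268 CPM in the other libraries, and Acadvl, the very-long-chain enzyme, was at 770 CPM there against 232 to 370 CPM. These levels were 3.26 and 2.74 times the mean of the other 5 libraries. The same ratio was 1.77 for the short-chain Acads and 1.45 for the medium-chain Acadm. It was 0.935 for Ivd, 0.690 for Acadsb and 1.18 for Acad8, and 1.12 for Gcdh, the glutaryl-CoA dehydrogenase of lysine and tryptophan breakdown. Acadm and Gcdh were named after their values were seen.

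**Figure D5:**
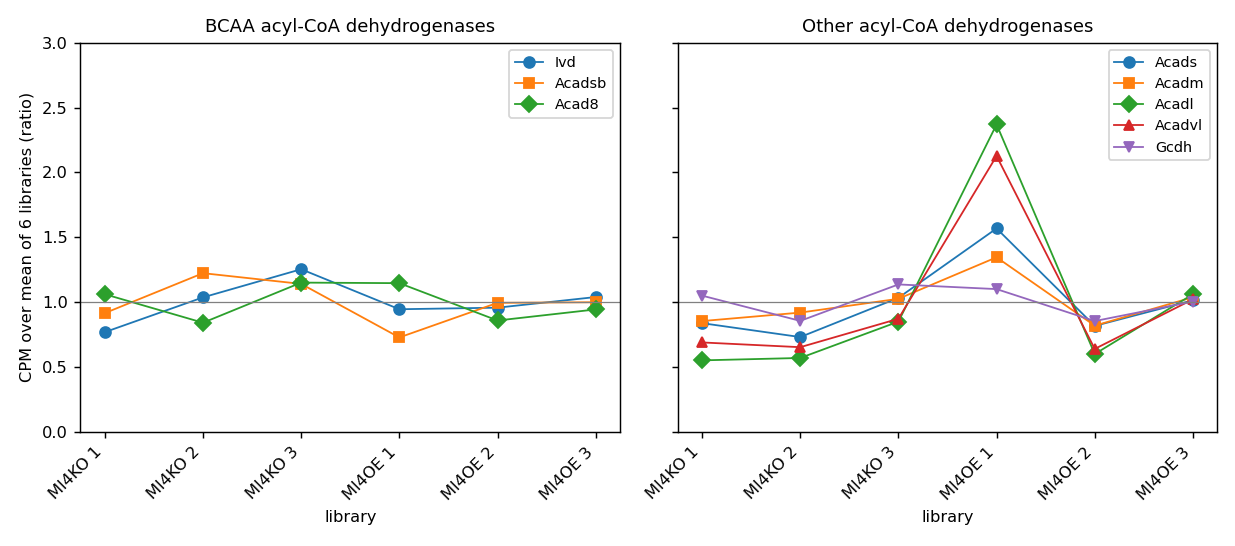
CPM of acyl-CoA dehydrogenase genes in each library, as a ratio to the gene's mean over 6 libraries, for the enzymes of BCAA breakdown (left) and their relatives (right). In MI4OE replicate 1, Acadl and Acadvl reach 2.37 and 2.13 on this scale, whereas Ivd, Acadsb and Acad8 stay between 0.728 and 1.15.

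The acceptors of these electrons went with the fat oxidation enzymes in that library. Etfa, Etfb and Etfdh were at 1.82, 2.84 and 1.86 times the mean of the other 5 libraries. Their log2 fold changes between genotypes were 0.41, 0.67 and 0.48, with standard errors of 0.29, 0.46 and 0.27, and 0 of the 5 electron and biotin partners passed either rule. MI4OE replicate 1 was the highest of 6 libraries for 4 of these 5 partners, for 4 of the 5 dehydrogenase relatives, for 3 of the 8 proximal genes tested, for 8 of the 12 further distal genes and for 11 of the 14 citric acid cycle genes. It was the highest for 3 of the 10 enzymes of interest (Auh, Hibch and Hibadh) and the lowest for 3 (Acadsb, Aldh6a1 and Pcca). The median ratio of that library to the mean of the other 5 was 1.0003 over the 10 enzymes, 1.06 over the proximal genes, 1.67 over the further distal genes, 1.77 over the dehydrogenase relatives and 1.30 over the citric acid cycle genes. Between genotypes, 0 of 5 relatives and 0 of 14 citric acid cycle genes passed either rule. The largest values were 1.03 with a standard error of 0.47 for Acadl and 0.80 with 0.47 for Sdhb, a subunit of succinate dehydrogenase, followed by Mdh2 (0.37) and Idh3g (0.35) in the cycle. How far the level in 1 library differed between these lists was not tested, since the library was singled out after its values were seen. The same counts of highest and lowest genes were not taken over all genes tested, so no background share stands beside them.

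Genes whose profile over the 6 libraries was most like the mean standardised profile of the 10 enzymes, among 6395 genes with a mean of at least 10 CPM, were Cpsf3 (r = 0.99), Ccni (0.96), Acad9 (0.94), Mipep (0.94) and Idh1 (0.93). With 6395 genes compared over 6 libraries, values this high can arise between unrelated genes. A link of these genes to the enzymes was not tested.

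Markers of fibre types and of other cells were read beside these results. Of the 10 slow-fibre genes, 8 passed the looser rule, all 8 higher in MI4OE, against 6.64% of all genes tested. Their median log2 fold change was 5.67, 0 of 10 passed the adjusted threshold, and the groups overlapped in every one. Of the 10 fast-fibre genes, 0 passed either rule. Adipocyte genes summed to 186 to 973 CPM in MI4KO and 115 to 269 CPM in MI4OE, and 7 of 8 passed the looser rule, all 7 lower in MI4OE. Hepatocyte genes summed to 53.5 CPM in MI4KO replicate 3 and to at most 4.12 CPM in the other libraries, and 1 of the 2 that could be tested passed, lower in MI4OE. Fibroblast genes summed to 204 to 309 CPM in MI4KO and 358 to 484 CPM in MI4OE, and 6 of 6 passed, all higher in MI4OE. Endothelial genes summed to 75.7 to 125 CPM and 143 to 277 CPM, with 3 of 6 passing as higher, and macrophage genes to 21.2 to 44.4 CPM over all libraries, with 0 of 5 called. No list had a gene at 0 in every library. MI4KO replicate 3, the highest library for adipocyte and hepatocyte genes, was also the highest for 4 of the 10 enzymes (Ivd, Mccc1, Mccc2 and Acad8). Without it the median log2 fold change of the 10 enzymes was -0.05, with 5 higher and 5 lower in MI4OE. The part of fibre types and of other cell types in the enzyme levels was not tested.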

How the data were processed

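Libraries enriched for mRNA were made by the authors with a stranded kit and sequenced as single reads. Reads, per the labels and the methods of the study, were demultiplexed with bcl2fastq 2.17, mapped to a UCSC transcript set with Bowtie2 2.1.0 and quantified with RSEM 1.2.15. The genome build is not given in the sources used here. For each gene the authors deposited an expected count, estimated by RSEM and not normalized, and a TPM value, adjusted by RSEM for transcript length. TPM values sum to a fixed total and so move with the most abundant genes. The authors' tables of fold changes, p-values and false discovery rates were not used, nor were the transcript-level files.

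Expected counts were rounded and fitted over the whole table with edgeR 4.0.16 in R 4.3.3. Filtering used filterByExpr (minimum count 10, minimum total 15), which kept 12660 of 24054 genes. CPM values used TMM-scaled library sizes. The quasi-likelihood test was run at default settings with Benjamini-Hochberg adjustment over all tested genes at 0.05, and the looser rule of the study (1.5-fold, unadjusted p under 0.05) was read from that fit. Intervals are 95% intervals from the standard error and the t distribution of that fit. Ratios of subunits were compared with exact permutation tests in SciPy 1.17.1. Other settings were RLE factors, total counts without scaling, no filter on counts, a filter at mean CPM 1, DESeq2 1.42.0, edgeR's exact test, limma 3.58.1 on log2(TPM + 1) and log2(TPM + 0.1), and leaving out each library. The code for these tests was run on simulated counts with known differences.

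Groups came from the genotype labels. Replicate numbers follow the order of deposition, nothing states a batch or litter, and p-values measure the spread between these samples. The 10 enzymes and all lists were chosen with earlier results of these data known. Named genes were the 10 enzymes, Irf4, Gt(ROSA)26Sor, Pccb, the 3 genes with the smallest p in each pathway list, and the 5 genes most like the enzymes' mean profile. Motifs and Acadm and Gcdh were chosen after the data were seen.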

Additional observations from a re-analysis of the deposited data

How the results depend on the processing

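The count of enzymes called was 0 by either rule in each of the 14 alternatives, and adjusted p for the 10 enzymes ran from 0.586 to 1. Mccc2, Acadsb, Aldh6a1 and Pcca kept a negative log2 fold change in all 14. Signs turned in 18 of 140 values, all for enzymes that passed no test. With total counts and no TMM, the values were 0.0136 for Ivd, 0.0578 for Mccc1 and 0.0487 for Acad8, and the median of the 10 was 0.0036. The median of all tested genes was then 0.0896. With limma on log2(TPM + 1) they were 0.0325, 0.0377 and 0.0138, and on log2(TPM + 0.1) 0.0340, 0.0414 and 0.0149. Across the fits without 1 library, the ranges were -0.23 to 0.11 for Ivd, -0.11 to 0.0437 for Mccc1, -0.33 to -0.12 for Mccc2, -0.28 to -0.12 for Pcca, -0.18 to 0.0363 for Acad8, -0.0497 to 0.26 for Auh, -0.27 to 3.6e-04 for Hibch, -0.0343 to 0.12 for Hibadh, and -0.14 to -0.0204 for the median of the 10. Without MI4OE replicate 1, 10 of the 10 enzymes were lower in MI4OE, and without MI4OE replicate 2, 5 were. The log2 ratio of Pccb to Pcca ran from -0.0041 to 0.29, and that of Mccc2 to Mccc1 from -0.29 to -0.15.

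Over all genes, the count with an adjusted p under 0.05 was 3, and it was 111 with DESeq2, 112 with edgeR's exact test, 5 with limma on log2(TPM + 0.1) and 1 to 4 without 1 library, with 1 without MI4KO replicate 1. The count by the looser rule was 841, while limma on log2(TPM + 1) gave 455 and the fits without 1 library 590 to 1314, with 1314 without MI4OE replicate 2. The causes were not tested. No paired analysis was possible because replicates are numbered by deposition and the labels link none of them across groups.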
